A study of Drosophila melanogaster with 36 samples.

Results

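The 8 genes described here were 6 subunits of the COPI coat (alphaCop, betaCop, beta'Cop, gammaCop, deltaCop and zetaCop), the small GTPase Arf79F and its exchange factor garz. They were chosen by name, as genes with a known part in the control of lipid droplets in fly cells. All 8 were found among the 17142 genes counted, garz by its symbol and the other 7 by a synonym. The FlyBase identifiers are FBgn0025725 for alphaCop (chromosome arm 3L), FBgn0008635 for betaCop (X), FBgn0025724 for beta'Cop (2L), FBgn0028968 for gammaCop (3R), FBgn0028969 for deltaCop (X), FBgn0040512 for zetaCop (3L), FBgn0010348 for Arf79F (3L, listed as Arf1 in the reference used) and FBgn0264560 for garz (2R).

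RNA-Seq was done on S3 cells, an established Drosophila line, after 4 h of treatment. In 6 groups the cells received 200 µM oleic acid (OA), 0.1% DMSO and 1 µM of an active or an inactive derivative of one of the lipid storage inhibitor chemotypes CT1, CT2 and CT3. The controls were cells with OA and DMSO (vehicle OA), cells with DMSO and no OA (vehicle noOA), cells with OA and no DMSO (OA), and cells with neither (noOA). The OA and noOA groups had 6 libraries each and the other 8 groups 3 each, 36 libraries in 10 groups. The vehicle libraries that the study left out, vehicle OA replicate 3 and vehicle noOA replicate 1, were not used in the tests and are given apart.

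COPI is a protein coat that forms on Golgi membranes and returns cargo to the endoplasmic reticulum. Its outer layer is made of alphaCop, beta'Cop and epsilonCop, and its inner, cargo-binding layer of betaCop, gammaCop, deltaCop and zetaCop. The exchange factor garz, the fly relative of mammalian GBF1, loads Arf79F with GTP, and GTP-bound Arf79F recruits the coat as a complete unit. In fly cells in culture, depletion of COPI, Arf79F or garz is known to increase lipid storage, and the coat is needed for delivery of the lipase brummer to lipid droplets. Whether the transcripts of this machinery moved when cells were loaded with OA or given a storage inhibitor is the question of the comparisons below.

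Libraries held 1208200 to 9548314 counted reads, with a median of 5005547, and an 18S rRNA pseudogene took 34.7% to 51.5% of them. The 8 genes together had 3551 to 17975 reads in each of the 34 libraries tested, and the fewest reads for any of them in a tested library were 94 for zetaCop in noOA replicate 1. Levels are given as CPM, read counts scaled to a normalised library size. No set of markers of S3 cells was at hand. Of 5 hemocyte markers, Pxn (2686 to 3498 CPM), srp, Hml and eater were present in every library, and NimC1 stayed at or below 0.455 CPM. Of 4 fat body genes, Fbp1, Lsp1alpha and Lsp2 stayed at or below 0.482 CPM in all 36 libraries, as did the ovarian marker tj. Yp1, the other fat body gene, had a median of 0.382 CPM but stood at 6.57 CPM in one tested vehicle OA library and 24.2 CPM in one tested vehicle noOA library, against 0.564 and 0 CPM in the other tested library of each, and its part in the results of these groups was not tested. The neuronal gene elav had 14.3 to 26.6 CPM, and nSyb, Syt1 and the muscle gene Mhc at most 3.19 CPM. FPKM values, which also divide by transcript length, stood at 0.521 times their usual ratio to CPM in noOA replicate 1 (median over genes) and at 0.407 and 0.339 times in the left-out libraries of vehicle OA and vehicle noOA.

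Per transcript length, Arf79F was by far the most abundant of these transcripts. Over the 34 libraries it averaged 596 ± 77.4 FPKM (SD), and zetaCop, the smallest subunit, came next at 122 ± 20.5 FPKM. The large subunits lay close together. The mean was 67.5 ± 9.62 FPKM for beta'Cop, 62.4 ± 9.42 for betaCop, 51.2 ± 7.79 for gammaCop, 50.1 ± 6.69 for alphaCop and 47.0 ± 7.42 for deltaCop. The exchange factor garz was the lowest at 26.4 ± 3.67 FPKM. EpsilonCop (FBgn0027496), the COPI subunit outside the 8 genes, averaged 59.8 ± 9.03 FPKM and fell between betaCop and gammaCop.

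Within a library the order was firm at both ends and loose in the middle. Arf79F stood above zetaCop, zetaCop above beta'Cop, and deltaCop above garz in all 34 libraries. Among the close neighbours, beta'Cop was above betaCop in 30 libraries, betaCop above epsilonCop in 23, and alphaCop above deltaCop in 27. The subunits gammaCop and alphaCop did not differ beyond their spread, with gammaCop the higher in 17 of 34 libraries.

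**Figure D1:**
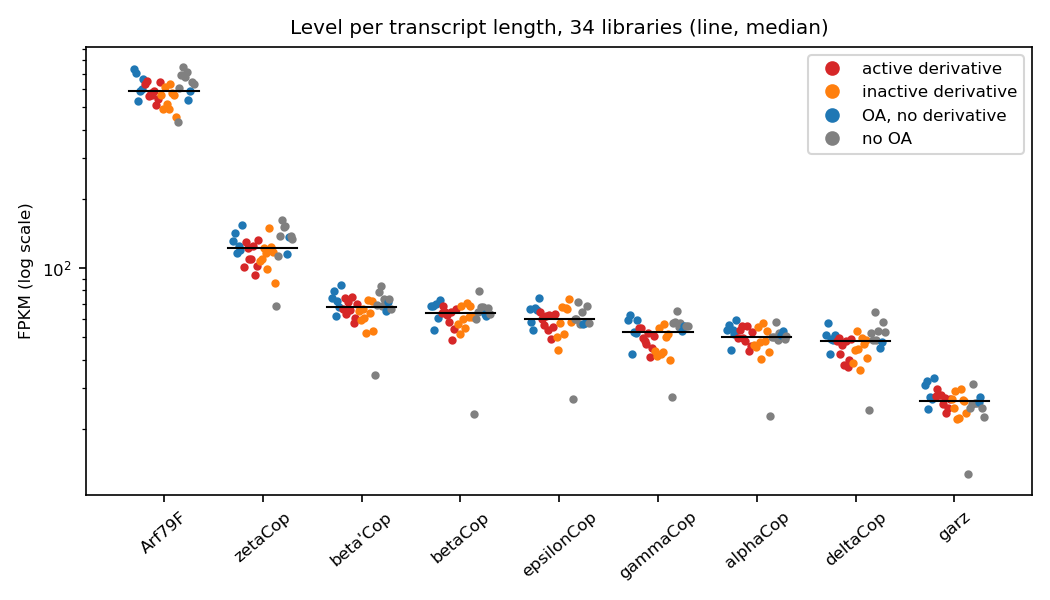
FPKM (log axis) of the 7 COPI subunits, Arf79F and garz in the 34 tested libraries, 1 point a library coloured by treatment, with the median as a line. Arf79F lies between 430 and 746 FPKM and garz between 12.7 and 33.4, and the lone low point of most genes is noOA replicate 1.

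These levels were steady over the 10 groups. The highest and the lowest group mean of a gene differed by 0.12 on the log2 scale for alphaCop, 0.14 for betaCop, 0.15 for beta'Cop, 0.26 for Arf79F, 0.27 for gammaCop and garz, 0.30 for zetaCop and 0.35 for deltaCop. The median of these ranges was 0.26 for the 8 genes and 0.40 over the 7607 tested genes with reads in every group, whose quartiles were 0.28 and 0.63. Those genes were not matched in level. By mean FPKM the 8 genes stood above 66.5% (garz) to 98.2% (Arf79F) of the genes tested. The part of level in this difference was not tested. In 136 tests, 8 genes in 17 comparisons, edgeR's quasi-likelihood test called 2 at an adjusted p under 0.05. One was gammaCop, lower with active CT3 than in vehicle OA, and the other was garz, higher in vehicle OA than in vehicle noOA. The share of all genes called ran from 0% to 13.6% over the 17 comparisons. All 136 of the 95% intervals of the log2 fold change lay inside -0.5 to 0.5.

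**Figure D2:**
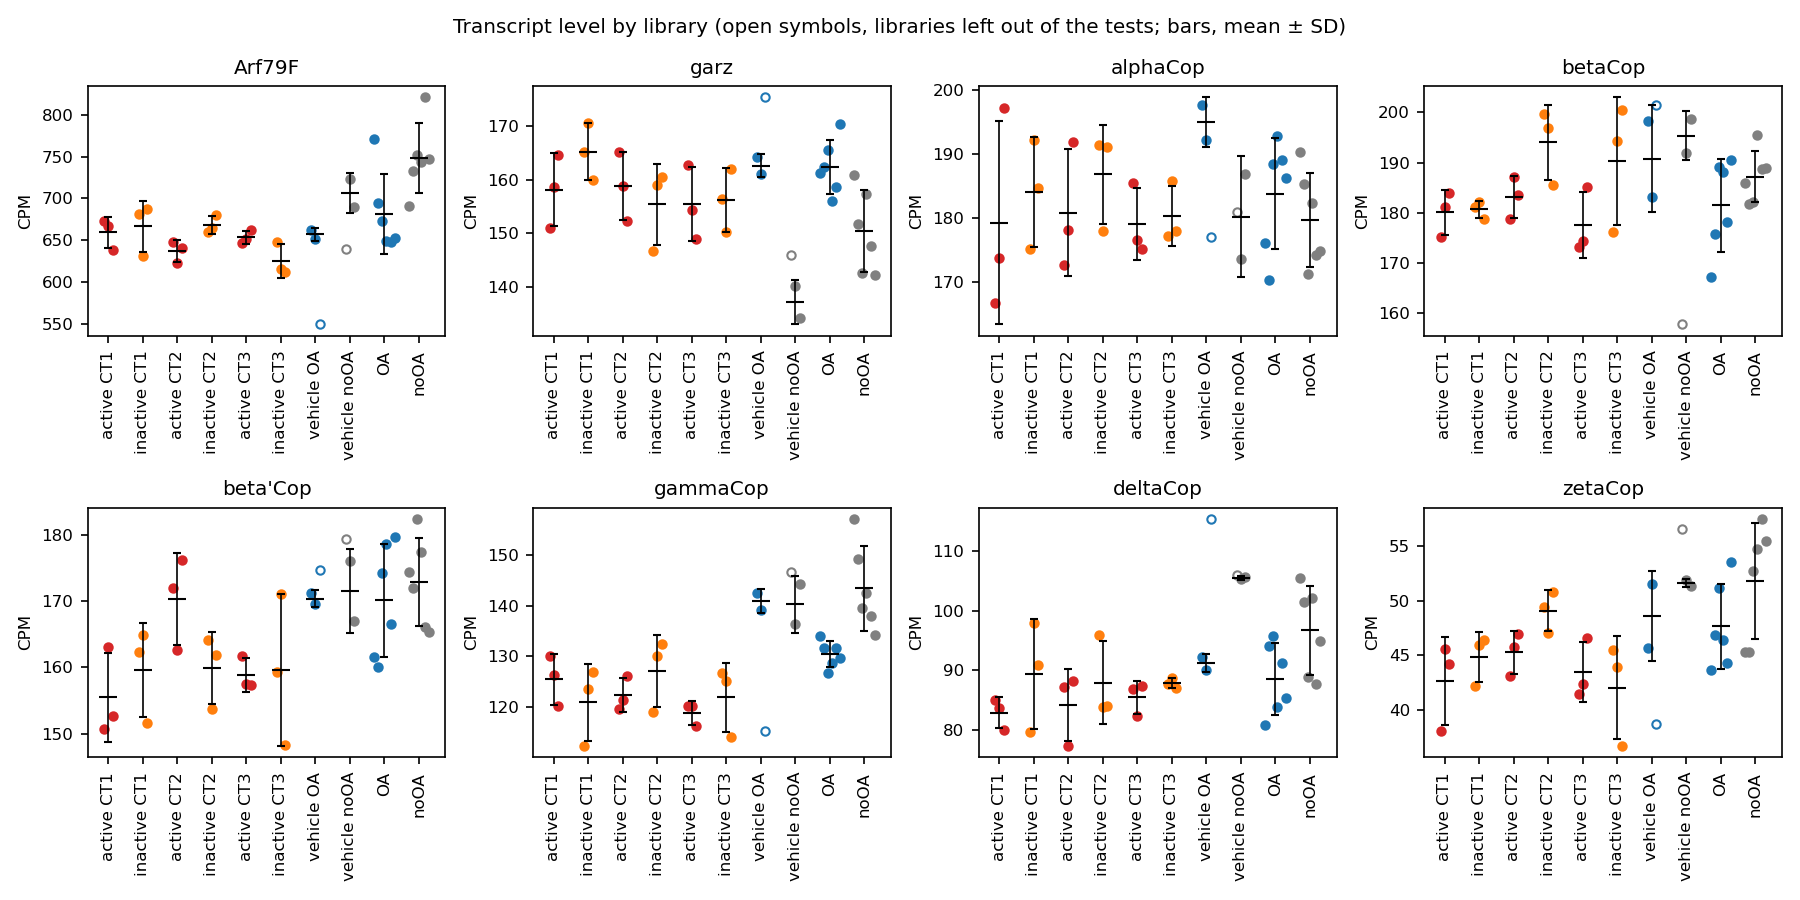
CPM of each of the 8 genes in every library, by group, with the group mean and SD of the tested libraries as bars and the left-out libraries as open points. The vertical axes do not start at 0. GammaCop sits at 116 to 120.3 CPM with active CT3 and at 139 and 142 CPM in the tested vehicle OA libraries, with the left-out library at 115.3.

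GammaCop, a large subunit of the inner layer that binds Arf and cargo, was lower with active CT3 than in vehicle OA. Its level was 120.3, 120.3 and 116 CPM with active CT3, against 142 and 139 CPM in vehicle OA. The log2 fold change was -0.24 ± 0.07 (SE, 95% interval -0.38 to -0.10, edgeR adjusted p = 0.0321). It was the only one of the 8 genes called in this comparison, where 4.87% of all genes tested were called. The call rested on few libraries. The vehicle OA library left out by the study was at 115.3 CPM, below all 3 libraries with active CT3, and with both left-out libraries in the fit the change was -0.19 (adjusted p = 0.153). DESeq2 gave an adjusted p of 0.0701, and without any one of the 5 libraries the adjusted p was between 0.0600 and 0.228.

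The level of gammaCop with active CT3 was not apart from that with the other derivatives. It was 130.1, 126 and 120.2 CPM with active CT1 and 119.7, 121 and 126 CPM with active CT2. The inactive derivatives gave 112, 124 and 127 CPM (CT1), 119, 130.1 and 132 CPM (CT2) and 127, 125 and 114 CPM (CT3). All 18 libraries with a derivative were thus below both tested vehicle OA libraries, while the left-out one, at 115.3 CPM, lay within their range. The share of all genes placed in this way against these few control libraries was not counted. Against those same libraries, the log2 fold change of gammaCop was -0.16 with active CT1, -0.19 with active CT2, -0.22 with inactive CT1, -0.13 with inactive CT2 and -0.20 with inactive CT3, and none of these 5 was called (lowest edgeR adjusted p = 0.139). Cells with OA and no DMSO had 134, 132, 127, 129, 132 and 129.7 CPM, also below vehicle OA, with a log2 difference of vehicle OA over OA of 0.11 (95% interval -0.02 to 0.24, adjusted p = 0.946).

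Against noOA, gammaCop in OA came close to a call. In OA it ranged over 127 to 134 CPM (median 131), against 134 to 157 CPM (median 141) in noOA. The highest OA library stood just under the lowest noOA library. EdgeR called 13.6% of all genes in this comparison, and the share whose groups did not overlap was not counted. The log2 fold change of gammaCop was -0.13 ± 0.04 (edgeR adjusted p = 0.0514). With limma on log2(FPKM + 1) it was 0.067, where the median of all genes was 0.15. In DMSO the groups overlapped, with 142 and 139 CPM in vehicle OA and 136 and 144 CPM in vehicle noOA (log2 fold change 0.01, 95% interval -0.14 to 0.16). The OA effect in DMSO less that without DMSO was 0.14 (95% interval -0.05 to 0.32), and this difference was not called.

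The other inner-layer subunits varied less or less clearly. BetaCop ranged from 167 to 201 CPM over the tested libraries, and its log2 fold changes against vehicle OA lay between -0.09 and 0.03. DeltaCop had 92.3 and 90.1 CPM in vehicle OA, against 105 and 106 CPM in vehicle noOA. This log2 fold change of -0.21 ± 0.09 had an unadjusted p of 0.018 and was not called (edgeR adjusted p = 0.144). The left-out libraries stood at 115.3 CPM for vehicle OA and 106 CPM for vehicle noOA. In OA against noOA deltaCop was not called either, at -0.13 on the log2 scale (edgeR adjusted p = 0.118).

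ZetaCop, the small subunit of the inner layer, had the fewest reads and so the widest intervals. It ranged over 43.7 to 53.6 CPM with a median of 46.6 in OA, against 45.3 to 57.5 CPM with a median of 53.8 in noOA. The groups overlapped, and the log2 fold change of -0.16 ± 0.06 was not called (adjusted p = 0.110). With active CT1 it had 38.1, 45.6 and 44.2 CPM, against 45.7 and 51.5 CPM in vehicle OA, a log2 fold change of -0.20 ± 0.10 (adjusted p = 0.210).

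The outer-layer subunits alphaCop and beta'Cop were among the steadiest. AlphaCop had 167, 174 and 197 CPM with active CT1, 173, 178 and 192 CPM with active CT2 and 185, 177 and 175 CPM with active CT3, against 198 and 192 CPM in vehicle OA. None of these changes was called, the largest being -0.12 with active CT1 and with active CT3. For beta'Cop the largest difference between derivatives was that of active CT1 against active CT2, with 151, 163 and 153 CPM against 172, 163 and 176 CPM (log2 fold change -0.14, unadjusted p = 0.028, adjusted p = 0.171). EpsilonCop was not called by edgeR or DESeq2 in any of the 17 comparisons and had no unadjusted edgeR p under 0.05, and its log2 fold changes against vehicle OA ran from -0.16 with inactive CT1 to 0.18 with inactive CT3.

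Arf79F, the GTPase that recruits the coat, came close to a call in OA against noOA. The 6 OA libraries had 771, 694, 673, 649, 648 and 653 CPM, and the 6 noOA libraries 691, 733, 752, 744, 821 and 747 CPM. All OA libraries but replicate 1 and replicate 2 were below the lowest noOA library. The log2 fold change was -0.14 ± 0.05 (95% interval -0.24 to -0.04, edgeR adjusted p = 0.0514). DESeq2 on all 12 libraries gave an adjusted p of 0.0429. Leaving out 1 library gave changes of -0.18 to -0.11 with adjusted p between 0.00547 and 0.145, and 2 of these 12 fits called it, those without OA replicate 1, the highest of its group, and without noOA replicate 1. With limma on log2(FPKM + 1) the difference was 0.00072, where the median of all genes was 0.15. In DMSO the direction was the same and the size smaller, with 662 and 652 CPM in vehicle OA, against 723 and 689 CPM in vehicle noOA (log2 fold change -0.10, 95% interval -0.24 to 0.03, adjusted p = 0.415). The left-out libraries had 549 CPM for vehicle OA and 639 CPM for vehicle noOA.

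The storage inhibitors left Arf79F close to its vehicle. It had 672, 667 and 639 CPM with active CT1, 648, 623 and 641 CPM with active CT2, and 646, 652 and 662 CPM with active CT3. The log2 fold changes against vehicle OA were 0.01 (95% interval -0.11 to 0.13), -0.03 (-0.16 to 0.09) and -0.0049 (-0.13 to 0.12). The inactive derivatives gave 0.02 for CT1, 0.04 for CT2 and -0.07 for CT3, none of them called.

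The exchange factor garz was higher with OA in DMSO. It had 164 and 161 CPM in vehicle OA, against 140.1 and 134 CPM in vehicle noOA. The log2 fold change was 0.25 ± 0.07 (95% interval 0.10 to 0.40, edgeR adjusted p = 0.0360). It was the only one of the 8 genes called in this comparison, where 6.45% of all genes tested were called. DESeq2 also called it (adjusted p = 0.0296), and it remained called with the left-out libraries in the fit, which had 175 CPM for vehicle OA and 146 CPM for vehicle noOA (0.25, adjusted p = 0.0141). Without any one of the 4 libraries it was no longer called (0.21 to 0.28, adjusted p between 0.106 and 0.238).

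Without DMSO, garz had 161, 162, 166, 156, 159 and 170.3 CPM in OA, against 161, 152, 143, 157, 148 and 142 CPM in noOA. The ranges overlapped, and the log2 fold change of 0.11 ± 0.04 did not pass the threshold (edgeR adjusted p = 0.0821). The size of the garz effect did not differ detectably between the vehicle and its absence, the difference being 0.14 (95% interval -0.05 to 0.32). With the derivatives garz stayed at the level of OA-fed cells, 149 to 165 CPM with the active ones and 147 to 171 CPM with the inactive ones. Its log2 fold changes against vehicle OA were -0.04, -0.02 and -0.07 for active CT1, CT2 and CT3, and 0.02, -0.05 and -0.06 for the inactive CT1, CT2 and CT3.

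**Figure D3:**
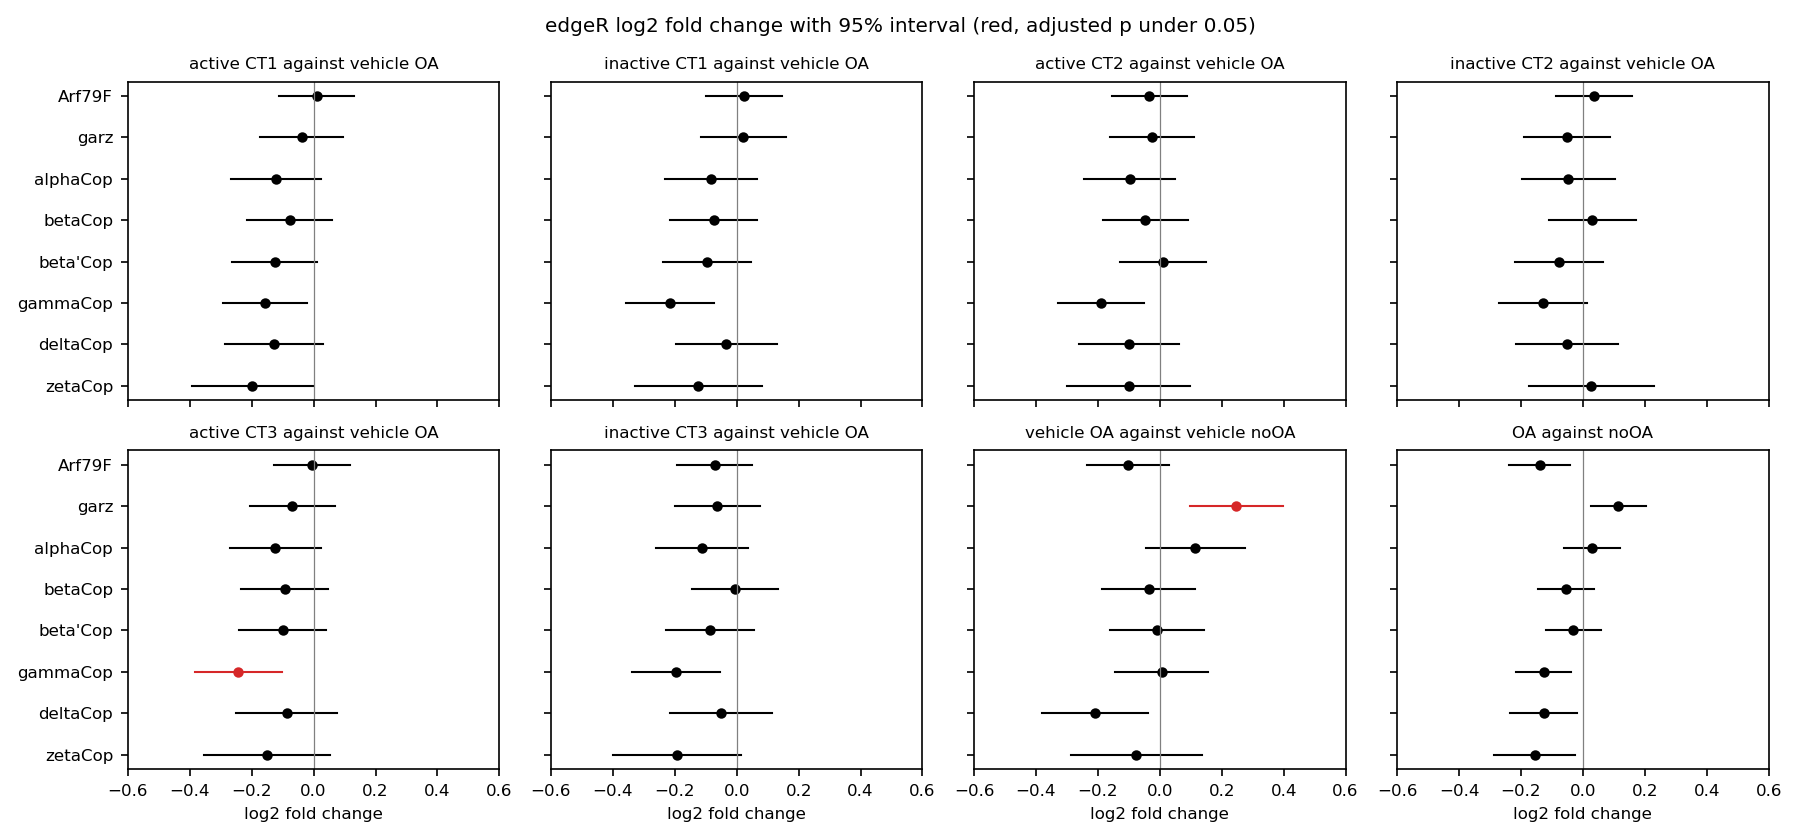
Log2 fold change (points) and 95% interval (lines) of the 8 genes in 8 comparisons, fitted with edgeR, with the called genes in red. Only gammaCop with active CT3 (-0.24) and garz in vehicle OA against vehicle noOA (0.25) are red, and the compound panels lean to the left of 0 for active and inactive derivatives alike, all against the same vehicle OA libraries.

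Against vehicle OA, the median of the 8 genes was slightly below 0 with every derivative, active or not. The median log2 fold change was -0.12 for active CT1, -0.07 for active CT2 and -0.10 for active CT3, and -0.08, -0.05 and -0.08 for the inactive derivatives of CT1, CT2 and CT3. The median over all genes tested was between -0.01 and 0.01 in these comparisons. These small values moved with the processing. With limma on log2(FPKM + 0.1) the median for active CT1 turned to 0.01, where that of all genes was 0.12, and over the alternatives it lay between -0.15 and -0.02 for the other 5 derivatives. For inactive CT1 it was -0.04 without vehicle OA replicate 1, and for inactive CT2 -0.03 without inactive CT2 replicate 3. The 6 comparisons share the 2 vehicle OA libraries, so they are no independent repeats of one another. With active CT1, 0 of the 8 genes were called and 2 had an unadjusted p under 0.05, where 12.1% of all genes were called. With active CT2, 0 were called and 1 had an unadjusted p under 0.05, where 2.03% of all genes were called. With inactive CT1, CT2 and CT3, 0 were called, with 1, 0 and 1 at an unadjusted p under 0.05, where 0%, 0.877% and 0.0133% of all genes were called. DESeq2 called 0 of the 8 in each of these 5 comparisons.

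Set directly against its inactive derivative, no active derivative changed the coat, Arf79F or garz detectably. In active CT1 against inactive CT1 the log2 fold changes ran from -0.09 for deltaCop to 0.06 for gammaCop, and 0 of 8 genes were called, where 12.7% of all genes were. In active CT2 against inactive CT2 they ran from -0.13 for zetaCop to 0.09 for beta'Cop, and 0 were called, where 2.49% of all genes were. In active CT3 against inactive CT3 they ran from -0.09 for betaCop to 0.07 for Arf79F, and 0 were called, where 3.68% of all genes were. None of these 24 tests had an unadjusted p under 0.05, and DESeq2 called 0 as well. The outermost limits of the 95% intervals were -0.31 and 0.23, both for zetaCop.

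Between the active derivatives no difference in these genes was called. For active CT1 against active CT2, 0 of 8 genes were called (9.89% of all genes), with beta'Cop alone at an unadjusted p under 0.05. For active CT1 against active CT3, 0 were called (4.64% of all genes), and for active CT3 against active CT2, 0 were called (0.465% of all genes), with 0 at an unadjusted p under 0.05 in both. DESeq2 called 0 in all 3, and the 95% intervals lay between -0.27 and 0.21.

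In OA against noOA, the comparison with most libraries, 0 of the 8 genes were called by edgeR and 1, Arf79F, by DESeq2, where edgeR called 13.6% of all genes. The 5 genes with an unadjusted p under 0.05 were gammaCop, deltaCop, zetaCop and Arf79F, all lower in OA, and garz, higher in OA. The largest of the 8 changes was -0.16, for zetaCop. AlphaCop, betaCop and beta'Cop had log2 fold changes of 0.03, -0.05 and -0.03, with 95% intervals inside -0.14 to 0.12. DMSO by itself gave no call either. In vehicle noOA against noOA 0 of 8 were called and garz alone had an unadjusted p under 0.05 (log2 fold change -0.13), where 0.0133% of all genes were called. In vehicle OA against OA, and for the OA effect in DMSO less that without, 0 of 8 were called with 0 at an unadjusted p under 0.05, where 0% of all genes were called. DESeq2 called 0 of 8 in these 3 comparisons.

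The other genes of transport between the endoplasmic reticulum and the Golgi were taken from 5 lists of 51 genes, of which 49 were tested. The share of them called against vehicle OA was close to that of all genes with active CT1 and active CT2, and 0 with active CT3. Against vehicle OA, active CT1 raised 3 of the 49 and lowered 3, which is 12.2% beside 12.1% of all genes. DESeq2 called 4 of the 49 there. Active CT2 raised 1 and lowered 0, 2.04% beside 2.03%. With active CT3, 0 of the 49 were called by edgeR or by DESeq2, with 4 at an unadjusted p under 0.05, beside 4.87% of all genes. Against its inactive derivative, active CT1 raised 5 of the 49 and lowered 1, 12.2% beside 12.7%. Active CT2 and active CT3 raised 1 and lowered 1 each, 4.08% beside 2.49% and 3.68% of all genes. Among the genes called, the largest rise was that of Xbp1, the transcription factor of the unfolded protein response. It had 707, 677 and 694 CPM with active CT1, against 469 and 499 CPM in vehicle OA, well apart (log2 fold change 0.52 ± 0.07, edgeR adjusted p = 7.9e-08). Sec24AB, a cargo-binding subunit of the COPII coat, which carries cargo forward from the endoplasmic reticulum, had 254, 277 and 299 CPM with active CT1 and 254, 246 and 256 CPM with active CT2, against 208 and 212 CPM in vehicle OA. Its log2 fold changes were 0.40 (adjusted p = 2.4e-05) and 0.28 (adjusted p = 0.0170). The active CT3 libraries, at 238, 241 and 235 CPM, also stood above both tested vehicle OA libraries, though Sec24AB was not called there. The left-out vehicle OA library had 234 CPM. Sec24AB had 213, 226 and 221 CPM with inactive CT1, and 223, 227 and 213 CPM with inactive CT2. All of these also stood above both tested vehicle OA libraries. With inactive CT3, Sec24AB had 209, 196 and 204 CPM. The share of all genes with libraries so placed was not counted. Of the listed COPII genes, 0 were called in active CT2 against inactive CT2 (lowest edgeR adjusted p = 0.0800). In active CT3 against inactive CT3, 1 was called, higher (edgeR adjusted p = 0.0227). The rise with CT2 was lost without either vehicle OA library or without active CT2 replicate 1 or 3 (adjusted p up to 0.233).

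Of the 3 falls with active CT1 against vehicle OA, 2 were in Golgi matrix proteins, Grasp65 and GM130. Neither of them was called lower in active CT1 against inactive CT1. With inactive CT1, Grasp65 had 98.7, 107.7 and 90.6 CPM and GM130 had 60.3, 57.9 and 59.0 CPM. Grasp65 had 81.9, 93.3 and 89.5 CPM with active CT1, against 113 and 114.7 CPM in vehicle OA (log2 fold change -0.36 ± 0.09, edgeR adjusted p = 0.00462). GM130 had 56.2, 53.7 and 54.0 CPM, against 74.2 and 61.4 CPM (-0.29 ± 0.09, adjusted p = 0.0261), and was not called by DESeq2 (adjusted p = 0.0806), with no filter on low counts (0.0526) or with the left-out libraries in the fit (-0.22, 0.130). The left-out vehicle OA library had 97.2 CPM for Grasp65 and 49.0 CPM for GM130, and without vehicle OA replicate 1 the change of GM130 was -0.16 (adjusted p = 0.495), while without replicate 2 that of Grasp65 was -0.35 (adjusted p = 0.0956). The SNARE Sec22 (0.31) and the Arf exchange factor Efa6 (-0.21) complete the 6 genes called and are named after their values were seen. Without vehicle OA replicate 1, Sec22 was at 0.19 (adjusted p = 0.259) and Efa6 at -0.16 (adjusted p = 0.361), and DESeq2 did not call Efa6 (adjusted p = 0.0525).

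**Figure D4:**
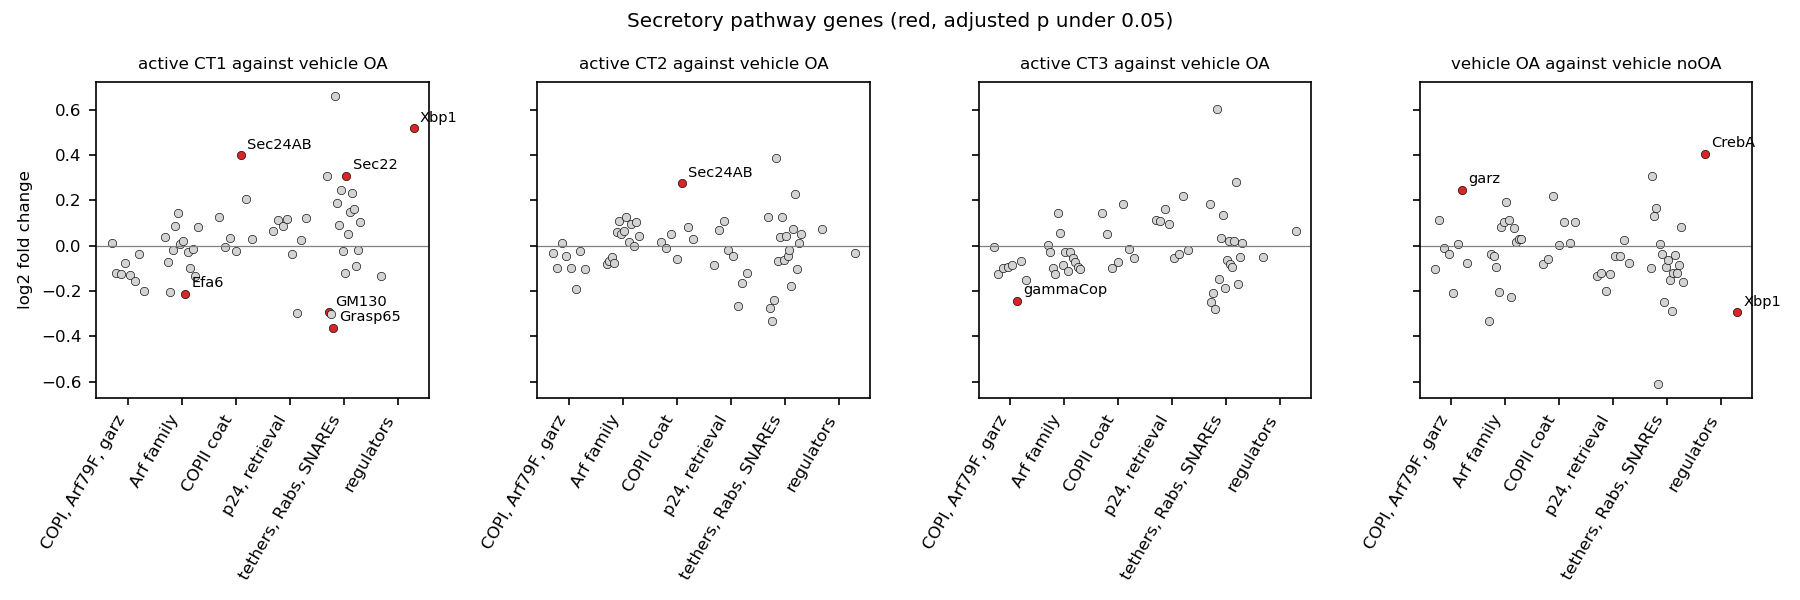
Log2 fold change of the 8 genes and of the 49 other tested genes of the early secretory pathway, 1 point a gene by list, for the 3 active derivatives against vehicle OA and for vehicle OA against vehicle noOA, with called genes in red and named. With active CT1, Xbp1 (0.52) and Sec24AB (0.40) are called above 0 and Grasp65 (-0.36) and GM130 (-0.29) below it, and none of the 8 genes is.

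With OA itself, both secretory regulators listed were called. In vehicle OA against vehicle noOA, 1 of the 49 genes rose and 1 fell, 4.08% beside 6.45% of all genes. CrebA, a transcription factor known in flies to drive secretory pathway genes, had 143 and 126 CPM in vehicle OA, against 94.2 and 108 CPM in vehicle noOA (log2 fold change 0.41 ± 0.09, edgeR adjusted p = 0.00258). Xbp1 had 469 and 499 CPM, against 596 and 593 CPM (-0.29 ± 0.07, adjusted p = 0.00861). Each was called without DMSO too, CrebA at 0.25 and Xbp1 at -0.44 in OA against noOA, where 2 of the 49 rose and 9 fell, 22.4% beside 13.6% of all genes. Leaving out vehicle noOA replicate 2 or vehicle OA replicate 1 ended the call of CrebA in DMSO (0.31 and 0.32), and leaving out any library but vehicle OA replicate 2 ended that of Xbp1 (adjusted p between 0.0594 and 0.142).

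Across the 34 libraries the 6 subunits went up and down together only loosely. The 15 pairwise Pearson correlations of log2 CPM had a median of 0.35 and ran from 0.11 (alphaCop and zetaCop) to 0.61 (gammaCop and deltaCop). Arf79F went about equally with gammaCop (0.57) and zetaCop (0.56) and ran against alphaCop (-0.37). Garz ran most against Arf79F (-0.41), deltaCop (-0.37) and zetaCop (-0.36), and went only with alphaCop (0.28). These libraries share groups and treatments, so the values describe the set and carry no test. Of all genes outside the 8, those most like the mean of the 6 subunits were CCT7, a subunit of the cytosolic chaperonin (r = 0.74), CG10512 (0.73), Dip-B (0.72), Cth (0.70) and CG5021 (0.70), and over the 10 group means these 5 had r between 0.74 and 0.91.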

How the data were processed

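Polyadenylated RNA of 36 libraries of S3 cells was sequenced from a strand-marking preparation. The authors aligned reads to BDGP Release 5 with TopHat 2.0.10, with at most 1 alignment kept for a read, and used HTSeq for stranded counting over exons. The deposited counts are raw reads per gene, and the deposited FPKM values are the authors' Cufflinks 2.1.1 estimates. Columns were joined to samples by the codes in the labels, and symbols were taken from FlyBase identifiers, with 16815 of 17142 matched. The study left out replicates with low correlation. The 2 left-out libraries were found by equal FPKM values (relative tolerance 1e-04) in its per-library table, which holds the other 22 libraries with DMSO and none of the OA and noOA groups, and so tells nothing of those groups. Its values are not used.

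Counts were fitted with edgeR 4.0.16 in R 4.3.3 (TMM, filterByExpr, quasi-likelihood F test), over 22 libraries with DMSO (7522 genes tested) and over 16 control libraries (7546 genes), with 1 estimate of spread each. All 8 genes passed the filter in both. P-values were adjusted by Benjamini-Hochberg over all genes of a comparison and called under 0.05. Standard errors came from the F statistic and intervals from the t distribution. CPM used TMM factors over all 36 libraries, and likeness of pattern log2 CPM with a prior count of 2. Counting error is the limit at low depth, with 94 reads at the least. Fits were tested on simulated data whose planted changes were all larger than any change of the 8 genes here. That test does not show how well changes as small as those of the 8 genes are found. In the Ensembl annotation none of the 8 genes shares exonic bases with another gene on its strand. Alternatives were DESeq2 1.42.0, RLE factors, other filters, all libraries, only the groups compared, a replicate block, limma 3.58.1 on log2(FPKM + 1) or log2(FPKM + 0.1), leaving out each library, and, added after the data were seen, leaving out the 18S rRNA pseudogene. The genes and lists were chosen with earlier results of these data known. From the lists, the 3 largest called rises and the 3 largest called falls over the active derivatives against vehicle OA and vehicle OA against vehicle noOA were named. Labels do not say whether replicates were separate cultures, so p-values measure the spread between these libraries. Same-numbered libraries did not deviate together, so no pairing was used. Authors' own fold changes were not used.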

Additional observations from a re-analysis of the deposited data

Results flagged for a closer look

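In the OA group, Arf79F was at 771 CPM in replicate 1, against 648 to 694 CPM in the other 5 libraries. The gap to the next library was 0.627 of the group's range, just past Dixon's 95% critical value for 6 libraries. It was the only far library in 16 sets of 6 (8 genes in OA and in noOA), and chance flags about 1 in 20 such sets.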

How the results depend on the processing

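Of the 17 counts of called genes among the 8, 14 were 0 under every alternative run, and the other 3 moved by 1 gene. For active CT3 against vehicle OA the count of 1 (gammaCop) became 0 with DESeq2, with no filter on low counts (adjusted p = 0.0954), with the study's FPKM cutoff as the filter (0.0621), with all 36 libraries and with each of 3 limma fits on FPKM, and stayed 1 with RLE factors, with only the groups compared, and without the 18S rRNA pseudogene. For vehicle OA against vehicle noOA the count of 1 (garz) became 0 with no filter (adjusted p = 0.100), with the FPKM filter (0.0514) and with limma, and stayed 1 in the others. For OA against noOA the count of 0 became 1 (Arf79F) with DESeq2. Leaving out 1 library gave 0 in the first and second of these and 0 to 1 in OA against noOA. In OA against noOA the call of 1 came without noOA replicate 1 or OA replicate 1 (Arf79F), noOA replicate 4 (garz), noOA replicate 6 (gammaCop) or OA replicate 6 (zetaCop). Limma on log2(FPKM + 1) and on log2(FPKM + 0.1) turned the direction of gammaCop (0.067 and 0.070) and Arf79F (0.00072 and 0.00075) in OA against noOA, the value with pseudocount 1 being the same with no filter. FPKM moved the median of all genes in that comparison to 0.15 and 0.17, relative to which both genes were still lower. FPKM moved that median past 0.1 in 8 comparisons, to between -0.23 and 0.17. The cause was not tested.

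Replicate numbers did not pair the libraries. Over 40 same-number pairs the correlation of deviations lay between -0.12 and 0.11, and 11 libraries correlated best with their own number. With the replicate block, gammaCop with active CT3 had an adjusted p of 0.0347 and garz in vehicle OA against vehicle noOA 0.0442, and no count among the 8 genes changed.

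Counts of all genes called moved by over 1.5 times with limma on FPKM and without single libraries. With limma the lowest against the main counts were 381 of 912 for active CT1, 60 of 153 for active CT2 and 110 of 366 for active CT3 against vehicle OA, 50 of 485 for vehicle OA against vehicle noOA and 30 of 1027 for OA against noOA. Without vehicle OA replicate 2 the counts against vehicle OA were 489 for active CT1, 74 for active CT2, 193 for active CT3 (223 without replicate 1) and 9 of 66 for inactive CT2, and 213 to 227 for vehicle OA against vehicle noOA without any one of its 4 libraries. Without 1 library, active CT2 against inactive CT2 had 59 (inactive CT2 replicate 3) to 420 (inactive CT2 replicate 2) of 187, active CT3 against active CT2 had 4 (active CT2 replicate 3) to 47 of 35, and active CT1 against active CT3 had 216 (active CT3 replicate 3) of 349. The shares of all genes called move with these counts. Depth limits zetaCop most. The motif search in promoters and its second window were not run, since no promoter sequences were used here.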
